A study of Mus musculus with 16 samples.

Results

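The 10 genes described here belong to the integrated stress response and its transcription factor ATF4. They are *Atf4*, *Atf5*, *Ddit3*, *Trib3*, *Asns*, *Phgdh*, *Psat1*, *Mthfd2*, *Fgf21* and *Gdf15*, and were taken by symbol from a count table of 55471 genes. The libraries are bulk mRNA of skeletal muscle from 16 male mice, 10 labelled heterozygous (*Npr1*+/-) and 6 labelled wildtype (*Npr1*+/+), with 1 mouse per library. *Npr1* encodes GCA, the receptor for atrial natriuretic peptide. The heterozygous mice carried 1 targeted allele of the line B6.129-Npr1tm1Gar/J in every tissue, after at least 10 generations of crossing to C57BL/6J, and the wildtype mice were their littermates. All mice entered the study at 12 weeks of age and then received a high-fat diet (HFD, 60% of energy as fat) for 12 weeks, so no group on another diet stands beside them here. The labels place the mice in 4 cages, each holding both genotypes, and give a body weight of 43.6 ± 3.79 g (SD, n = 10) for *Npr1*+/- and 47.4 ± 4.69 g (SD, n = 6) for *Npr1*+/+ mice.

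In the integrated stress response, kinases that sense amino acid shortage, unfolded protein, heme shortage, viral RNA or mitochondrial damage phosphorylate the translation factor eIF2 alpha. General translation then slows, while the mRNA of *Atf4* is translated more. ATF4 protein pairs with C/EBP factors and induces genes for amino acid synthesis and transport, tRNA charging and secreted signals. In skeletal muscle this programme is known as a response to mitochondrial dysfunction, with FGF21 and GDF15 as its circulating products. Because ATF4 is controlled largely at translation, the mRNA of its target genes carries information that *Atf4* mRNA does not.

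The C/EBP-ATF response element was searched as TGATGNAA on both strands of the RefSeq promoter windows of GRCm38.p6, which run from 250 bases before to 50 bases after a RefSeq start of the gene. All 10 genes had a window, with 13 windows in total. The letters were present in the windows of 3 genes, *Asns*, *Fgf21* and *Trib3*, against 4.51% of the 27025 genes in the same collection. The windows are shown because these genes span the range from detected to nearly silent in this muscle. In each, the strand is that of the gene and the capitals mark the match.

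Asns, chr6:7693210-7693309, minus strand, bases -100 to -1: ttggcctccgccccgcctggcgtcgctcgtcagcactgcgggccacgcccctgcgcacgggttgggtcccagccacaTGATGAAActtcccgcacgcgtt

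Fgf21, chr7:45615591-45615690, minus strand, bases -200 to -101: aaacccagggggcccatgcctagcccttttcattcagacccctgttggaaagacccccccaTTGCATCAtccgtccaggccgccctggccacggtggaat

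Trib3, chr2:152344028-152344057, minus strand, bases 4 to 33 after the start: ttagctcaggtTTACATCAgccgggcgggg

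The match in *Asns* lies on the strand of the gene at bases -23 to -16. The matches in *Fgf21* (bases -139 to -132) and *Trib3* (bases 15 to 22) lie on the opposite strand. The RefSeq start of *Asns* lay 45 bases inside the gene span of the deposited table, so its match falls within that span. The RefSeq start of *Trib3* lay 72 bases before its span, so its match falls outside it. A match describes the letters of the window only, and the windows of the other 7 genes did not hold them. The RefSeq starts used for *Psat1* lay 22.3 and 22.7 kb inside the gene span of the deposited table, and that of *Mthfd2* 8.3 kb inside it. For these 2 genes the search therefore did not cover the 5′ end of the span given below.

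The libraries held between 15273472 and 59682677 counts. Markers of muscle fibres were abundant in all 16, with a sum over 6 markers, *Ckm* and *Acta1* among them, of 94356 to 152614 CPM (counts relative to the library total, with TMM adjustment). All 5 adipocyte markers were detected in every library. Their sum was highest in replicate 10 labelled *Npr1*+/- (327.6 CPM) and replicate 4 labelled *Npr1*+/+ (208.9 CPM), and ran from 16.9 to 155.7 CPM in the others. Hepatocyte markers summed to 69.2 CPM in replicate 5 labelled *Npr1*+/+ and to at most 1.20 CPM elsewhere, with *Ttr* and *Apoa1* at 0 in the other 15 libraries. The first principal component (PC1) of log2 CPM held 43.7% of the variance. Replicates 7, 6 and 5 labelled *Npr1*+/- had the highest scores, 79.9, 66.1 and 42.8, above 18.6 for the next library. At the other end, replicates 9 and 10 of that label had scores of -53.9 and -42.0. The targeted gene itself, *Npr1*, was at 12.2 ± 1.05 CPM (SD, n = 6) under the *Npr1*+/+ label and not lower under the *Npr1*+/- label, where it was at 13.6 ± 3.87 CPM (SD, n = 10). The labels do not give which exons the targeted allele lacks. Whether this gene's total count reports the allele, and whether each label matches its library, was not tested. Directions below are therefore between libraries as labelled.

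Per kilobase of gene length, the 10 genes spanned levels from abundant to almost absent. *Atf4* came first, with 122.7 ± 23.9 CPM per kilobase (SD, n = 16), which stood at percentile 97.7 of the genes tested. *Atf5*, a related stress-induced transcription factor, followed with 37.9 ± 6.65 CPM per kilobase, and *Ddit3*, which encodes the transcription factor CHOP, with 9.0 ± 1.47. This order of the 3 factors held in 16 of 16 libraries. The target enzymes and *Trib3* formed a lower tier. *Phgdh* had 1.09 ± 0.560 CPM per kilobase, *Trib3* 1.07 ± 0.352, *Mthfd2* 0.885 ± 0.240, *Psat1* 0.770 ± 0.259 and *Asns* 0.720 ± 0.168. Neighbours in this tier could not be ordered, since each was above the next in only 7 to 11 of 16 libraries. *Gdf15* (0.0548 ± 0.0569) lay below *Asns* in all 16 libraries. *Fgf21* (0.0132 ± 0.0367) had the lowest mean, but *Gdf15* was above it in only 11 of 16 libraries, so their order is not settled.

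Neither hormone gene passed the filter on low counts. *Fgf21*, on chromosome 7, had 4 counts in all 16 libraries, 2 in replicate 6 labelled *Npr1*+/+ and 2 in replicate 8 labelled *Npr1*+/-. The other 14 libraries were at 0, and a count of 0 allows up to 3 counts, or 0.0493 to 0.219 CPM depending on the library. *Gdf15*, on chromosome 8, had 30 counts in all, with 0 to 6 per library and 3 libraries at 0. Pooled over libraries, *Gdf15* stood at 0.0831 CPM (exact 95% Poisson interval 0.0430 to 0.145, 12 counts) in *Npr1*+/+ and at 0.0787 CPM (0.0466 to 0.124, 18 counts) in *Npr1*+/-. These intervals cover counting error only. In the fit without that filter, over 30287 genes, the log2 fold change of *Gdf15* was -0.59 (SE 0.83, 95% confidence interval -2.30 to 1.12, unadjusted p = 0.486 and adjusted p = 1.0 in edgeR). No fold is given for *Fgf21*, whose counts were at or under the limit in both labels.

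**Figure D1:**
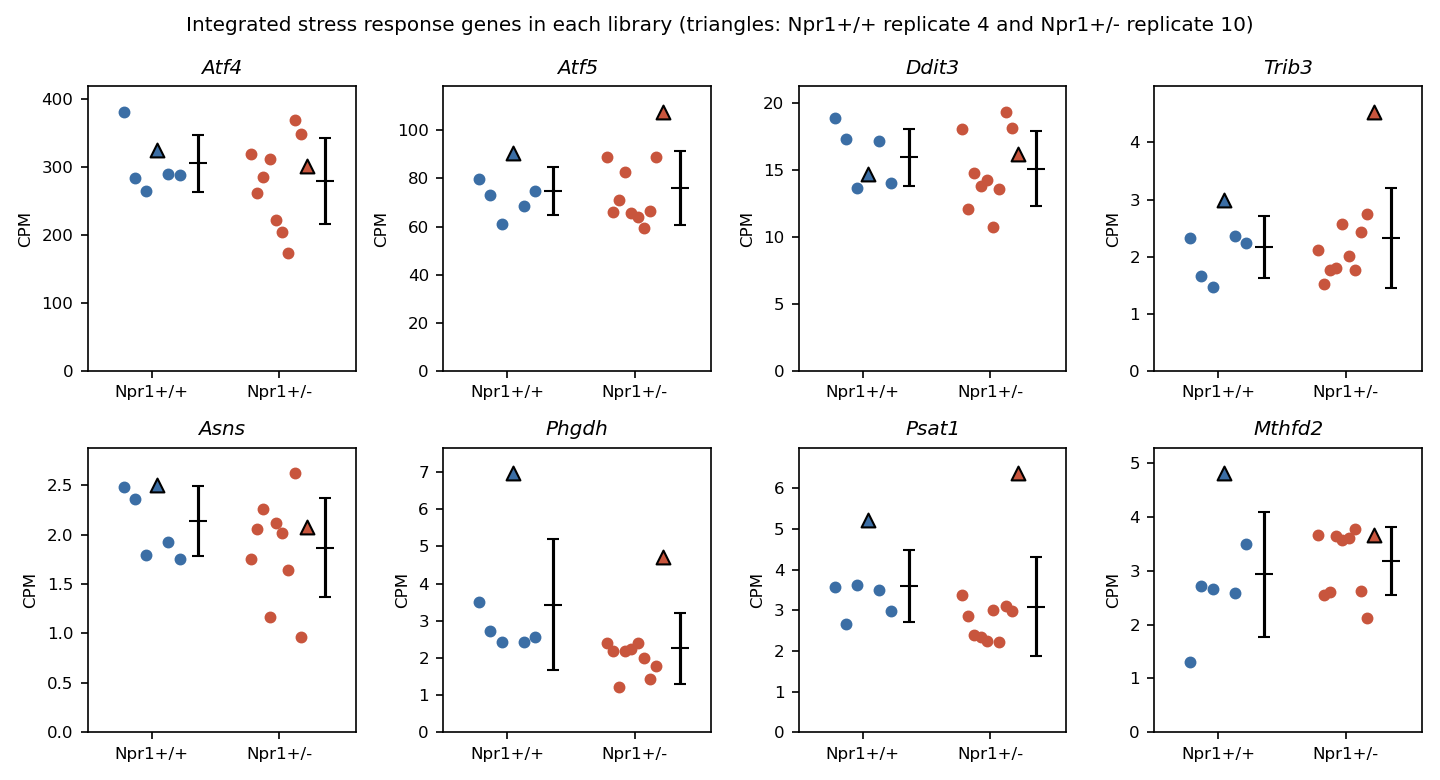
Expression of the 8 tested genes in CPM (vertical axes, each starting at 0) in the 6 libraries labelled Npr1+/+ and the 10 labelled Npr1+/-. Points are single libraries, triangles are Npr1+/+ replicate 4 and Npr1+/- replicate 10, and bars beside the points show the mean ± SD. The groups overlap for all 8 genes, and the triangles are the highest libraries of their group for Phgdh and Psat1.

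The other 8 genes passed the filter on low counts and were tested among 14331 genes with edgeR's quasi-likelihood test for the genotype label, adjusted for cage and body weight. No difference passed the test. Each of the 8 had an adjusted p of 1.0 (edgeR, Benjamini-Hochberg), against 0% of all genes tested with an adjusted p under 0.05. The log2 fold changes (*Npr1*+/- minus *Npr1*+/+) ran from -0.73 to 0.02 with a median of -0.10, beside a median of -0.0060 over all genes tested. Of the 8 values 7 were below 0, as were 51.6% of all genes. That count was 1 of 8, *Ddit3* at -0.13, without replicate 4 labelled *Npr1*+/+, and 5 of 8 with the genotype label alone in the model. Only *Phgdh* had an unadjusted p under 0.05, as had 1.05% of all genes (0.509% lower and 0.544% higher in *Npr1*+/-). In all 8 genes the CPM ranges of the labels overlapped, and 0.00698% of all genes had log2 CPM that did not overlap. Whether fewer cells of a type or less RNA per cell lies behind a level cannot be told apart in bulk muscle.

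Among the transcription factors, *Atf4* (chr15:80255184-80257541) had a lowest, median and highest CPM of 265.3, 288.9 and 381.2 in *Npr1*+/+ and of 174.2, 293.1 and 369.1 in *Npr1*+/-. The 3 lowest libraries were *Npr1*+/- replicates 7, 6 and 5, and the others of that label lay within or near the *Npr1*+/+ range. The log2 fold change was -0.08 (standard error, SE, 0.19, 95% confidence interval -0.47 to 0.32). *Atf5* (chr7:44812256-44816658) ran from 61.0 to 90.4 CPM around a median of 74.1 in *Npr1*+/+, and from 59.2 to 107.6 around 68.6 in *Npr1*+/-, and its log2 fold change was -0.01 (SE 0.17). *Ddit3* (chr10:127290774-127296065), whose product CHOP links prolonged stress to cell death, ran from 13.7 to 18.9 CPM (median 15.9) and from 10.7 to 19.3 CPM (median 14.5). Its log2 fold change was -0.10 (SE 0.17). The 95% confidence intervals of *Atf5* (-0.37 to 0.35) and *Ddit3* (-0.46 to 0.26) bound the size of a difference in these factors.

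*Trib3* (chr2:152337422-152343988) encodes a pseudokinase that is induced by ATF4 and CHOP and restrains both ATF4 and insulin signalling through Akt. Its lowest, median and highest CPM were 1.47, 2.28 and 2.99 in *Npr1*+/+ and 1.52, 2.07 and 4.53 in *Npr1*+/-. The highest value belonged to *Npr1*+/- replicate 10, and the groups otherwise covered the same range. The log2 fold change was 0.02 (SE 0.26, 95% confidence interval -0.53 to 0.56), with counts of 25 to 156 per library.

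The 4 metabolic enzymes were expressed at 1.97 to 3.28 CPM on average. *Phgdh* (chr3:98313170-98339990), the first enzyme of serine synthesis from glycolysis, lies 7.85 Mb from *Npr1* on the same chromosome. Its lowest, median and highest CPM were 2.44, 2.64 and 6.96 in *Npr1*+/+ and 1.23, 2.18 and 4.72 in *Npr1*+/-. Replicate 4 labelled *Npr1*+/+ and replicate 10 labelled *Npr1*+/- held the highest values. They were also the 2 libraries highest in adipocyte markers, and the others ran from 1.23 to 2.41 CPM in *Npr1*+/- (n = 9) and from 2.44 to 3.50 CPM in *Npr1*+/+ (n = 5). Since the pair set aside holds the top *Phgdh* value of each label, these narrower ranges are a description only. The log2 fold change was -0.73 (SE 0.33, 95% confidence interval -1.42 to -0.03, unadjusted p = 0.0411 and adjusted p = 1.0 in edgeR). The within-cage differences in log2 CPM were -0.56 in cage 675, 0.06 in cage 676, -0.41 in cage 677 and -1.74 in cage 678, where replicate 4 was the 1 library labelled *Npr1*+/+.

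*Psat1* (chr19:15904678-15947337) encodes the next enzyme of the same route. Its lowest, median and highest CPM were 2.67, 3.54 and 5.22 in *Npr1*+/+ and 2.23, 2.91 and 6.36 in *Npr1*+/-, with the same 2 libraries at the top. The log2 fold change was -0.32 (SE 0.25, unadjusted p = 0.211 in edgeR). *Asns*, asparagine synthetase (chr6:7675169-7693254), had 1.75, 2.14 and 2.51 CPM in *Npr1*+/+ and 0.961, 2.04 and 2.62 CPM in *Npr1*+/-, and its log2 fold change was -0.27 (SE 0.25). The 2 lowest *Asns* values were both in libraries labelled *Npr1*+/-, replicates 9 and 4. *Mthfd2*, the mitochondrial one-carbon enzyme (chr6:83305691-83325908), had 1.31, 2.69 and 4.80 CPM in *Npr1*+/+ and 2.11, 3.59 and 3.78 CPM in *Npr1*+/-, and its log2 fold change was -0.11 (SE 0.26). The *Npr1*+/+ libraries thus held both the lowest and the highest *Mthfd2* value.

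Counting error set part of this spread. For *Asns*, with 20 to 129 counts per library, the coefficient of variation over the 16 libraries was 23.3%, beside 16.2% from counting alone. For *Phgdh* it was 51.6% beside 14.5%, the widest of the 8 genes. *Atf4* varied by 19.5% with a counting share of 1.31%, so that nearly all of its spread lay between libraries.

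**Figure D2:**
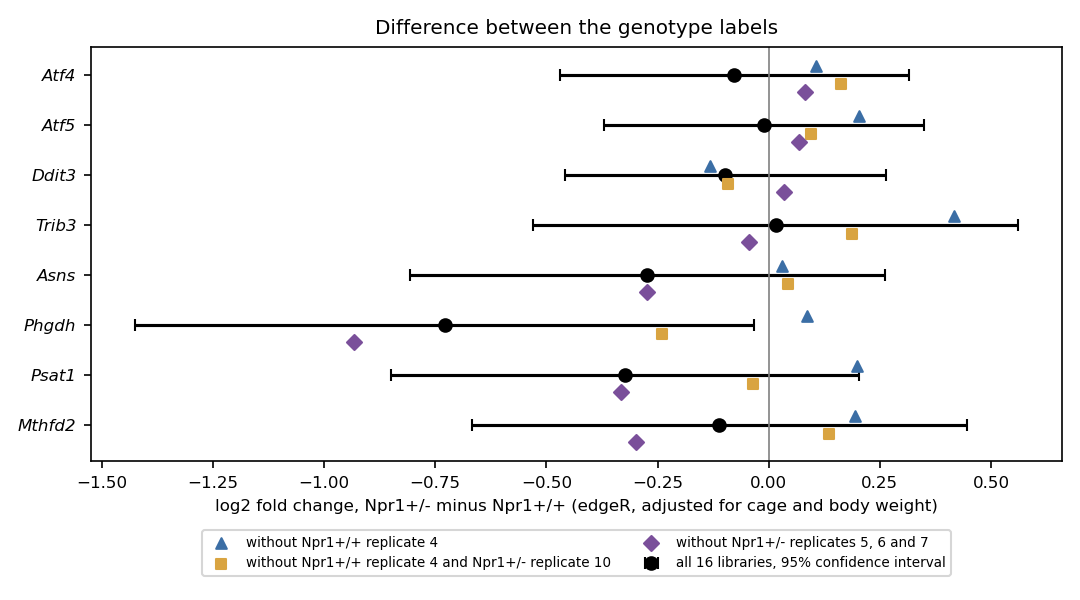
Log2 fold change of the 8 tested genes, Npr1+/- minus Npr1+/+ (horizontal axis), from edgeR with cage and body weight as covariates. Black points and bars give the value and 95% confidence interval over all 16 libraries, and coloured marks give the value without the named libraries. Phgdh has the value farthest from 0, -0.73, and is at 0.09 without Npr1+/+ replicate 4.

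The size of the *Phgdh* difference, and its sign in the fit adjusted for cage and weight, depended on replicate 4 labelled *Npr1*+/+. Without it cage 678 held no library of that label, and the adjusted log2 fold change of *Phgdh* was 0.09 (unadjusted p = 0.811 in edgeR), that of *Psat1* was 0.20, and *Atf4*, *Atf5*, *Asns* and *Mthfd2* also changed sign, to between 0.03 and 0.20. With the genotype label alone in the model, the log2 fold change of *Phgdh* without that library stayed below 0, at -0.29 (unadjusted p = 0.249, adjusted p = 0.946 in edgeR). Without replicate 10 labelled *Npr1*+/- the log2 fold change of *Phgdh* was -0.91 (unadjusted p = 0.0038), and without both libraries it was -0.24 (unadjusted p = 0.448). With the label alone and without both it was -0.45 (unadjusted p = 0.0229, adjusted p = 0.887 in edgeR). The libraries left out hold the top *Phgdh* value of each label, so the values without both are a description only. Over all 16 libraries, 544 of 14331 genes had an unadjusted p under 0.05 with the label alone. With the summed adipocyte markers as a further covariate the log2 fold change of *Phgdh* was -0.58 (unadjusted p = 0.0168). Without replicate 5 labelled *Npr1*+/+, the library with hepatocyte markers, it was -1.02 (unadjusted p = 0.0102). In the 5 fits that included cage and weight its adjusted p was 1.0. The lowest over all alternatives was 0.521, with the replicate number as a block, a number that marks no shared animal.

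*Phgdh* and *Psat1* varied together and with adipocyte markers. Over the 16 libraries, the log2 CPM of the 2 genes had a Pearson r of 0.766 and a Spearman rho of 0.629, the highest r of the 28 pairs of tested genes. Without replicate 4 labelled *Npr1*+/+ and replicate 10 labelled *Npr1*+/- it was 0.410. With the log2 sum of the 5 adipocyte markers, *Phgdh* had an r of 0.753 (rho 0.574) and *Psat1* an r of 0.788 (rho 0.703), while *Asns* had 0.0892 and *Mthfd2* 0.220. *Trib3* had an r of 0.504 (rho 0.176) and *Atf5* one of 0.432 (rho 0.226). The 2 libraries farthest from the median of the marker sum were replicates 3 and 10 labelled *Npr1*+/-, and without them r was 0.586 for *Phgdh* and 0.730 for *Psat1*. Without the 2 libraries with the highest sums, replicate 10 and replicate 4 labelled *Npr1*+/+, it was 0.578 for *Phgdh* (rho 0.367) and 0.557 for *Psat1* (rho 0.556), and -0.00804 for *Trib3* and -0.0451 for *Atf5*. For the mean standardized level of the 4 enzymes, the other genes with the most similar pattern were *Glb1l2* (r = 0.851), *Trarg1* (0.815) and the adipocyte marker *Plin1* (0.798). These correlations describe 16 libraries that differ in depth and in their marker sums, and the part of fat cell RNA in the levels of *Phgdh* and *Psat1* was not tested.

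**Figure D3:**
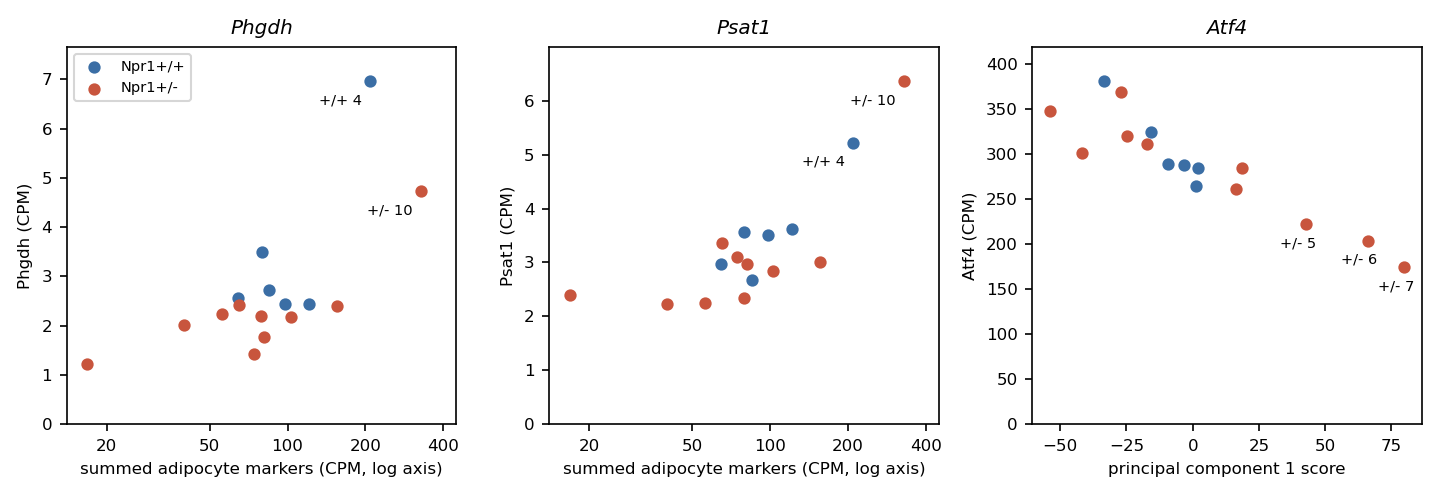
CPM of Phgdh and Psat1 (vertical axes) against the summed CPM of 5 adipocyte markers (horizontal log axes), and CPM of Atf4 against the PC1 score, with 1 point per library, blue for Npr1+/+ and red for Npr1+/-. Phgdh and Psat1 are highest in the 2 libraries with marker sums of 208.9 and 327.6 CPM, and Atf4 is lowest in the 3 libraries with the highest PC1 scores.

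*Atf4* followed the main axis of variation between libraries. Its log2 CPM had an r of -0.935 (rho -0.912) with the PC1 score, and of -0.847 without replicates 7 and 6 labelled *Npr1*+/-. *Atf5* (r = -0.739) and *Ddit3* (r = -0.721) followed the same axis less closely, and *Psat1* (r = -0.539, rho -0.594) and *Trib3* (r = -0.47, rho -0.576) less closely still. *Phgdh* had an r of -0.249, *Asns* one of 0.148 (rho -0.0176) and *Mthfd2* one of 0.348 (rho 0.206). Across the 14331 genes tested, the PC1 loading had an r of 0.529 with log10 gene length, and across libraries the PC1 score had an r of 0.273 with log10 total counts. The summed endothelial markers *Pecam1*, *Cdh5*, *Kdr* and *Tie1* ran from 162.5 to 224.5 CPM in *Npr1*+/+ and from 117.7 to 462.9 CPM in *Npr1*+/-, with the highest sums in replicates 7 and 6, and had an r of -0.882 with *Atf4*. The genes closest to *Atf4* in pattern were *Calm3* (r = 0.979), *Mrpl21* (0.973), *Cep19* (0.968), *Cct5* (0.967) and *Stoml2* (0.962), and of 14330 other genes 318 had an r above 0.9 and 399 one below -0.9. The part of gene length or endothelial RNA in the *Atf4* level was not tested.

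The targets differed in how closely they varied with *Atf4* mRNA. *Atf4* had an r of 0.734 with *Ddit3* and 0.605 with *Atf5*, but 0.045 with *Asns*, 0.156 with *Phgdh*, 0.335 with *Trib3* (rho 0.544), 0.412 with *Psat1* and -0.446 with *Mthfd2*. *Trib3* varied with *Atf5* (r = 0.706) and *Psat1* (0.679). Of the 28 pairs, 24 had an r above 0 and 8 above 0.5, with a median of 0.276. The shares over all pairs of genes were not computed, so these counts do not set this group apart from other genes. Replicate 10 labelled *Npr1*+/- held the highest *Atf5*, *Trib3* and *Psat1* values, and without it and replicate 4 labelled *Npr1*+/+ the r of *Atf5* with *Trib3* was 0.390.

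Cage and body weight were tested in the same edgeR fit. For cage, 0.0279% of all genes had an adjusted p under 0.05 and 7.36% an unadjusted one. None of the 8 genes had either, and the lowest unadjusted p was 0.140, for *Trib3*. The difference between the labels was not called as varying by cage in any of the 8 genes (adjusted p = 1.0 in edgeR, lowest unadjusted p = 0.0637 for *Phgdh*), with 0% of all genes called and 0.921% at an unadjusted p under 0.05. For body weight, 0% of all genes had an adjusted p under 0.05 and 17.1% an unadjusted one (12.3% with a slope below 0 and 4.74% above), and again none of the 8 genes had either. Their slopes ran from -0.057 log2 per g for *Mthfd2* (SE 0.036, adjusted p = 0.391 in edgeR) to 0.030 for *Atf4* (SE 0.024, adjusted p = 0.490), with 4 of 8 below 0, as were 52.7% of all genes. The weight and cage results depended on replicate 3 labelled *Npr1*+/-, a 40.1 g mouse. Without it 3158 genes had an adjusted p under 0.05 for weight and 869 for cage, the slope of *Atf4* was 0.068 (adjusted p = 0.0541 in edgeR) and that of *Mthfd2* -0.096 (adjusted p = 0.0840). Without replicate 7 labelled *Npr1*+/- the slope of *Atf4* was 0.011 (adjusted p = 0.895), the lowest with 1 library left out. The slope of *Mthfd2* was -0.029 without replicate 1 labelled *Npr1*+/+.

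The wider pathway was described by lists of its own, grouped by role. Of 60 further genes of the response, 57 were tested, and *Cbs*, *Slc7a3* and *Slc7a11* did not pass the filter. By genotype label 22 values were above 0 and 35 below, beside 51.6% of all genes below 0, with a median log2 fold change of -0.02. None had an adjusted p under 0.05, and 1 had an unadjusted one, beside 1.05% of all genes. That gene was *Mthfd1l*, another mitochondrial one-carbon enzyme, at 0.502 CPM on average. Its lowest, median and highest CPM were 0.0696, 0.424 and 0.882 in *Npr1*+/+ and 0.288, 0.565 and 0.784 in *Npr1*+/-, so the labels overlapped. Its log2 fold change was 1.04 (SE 0.45, unadjusted p = 0.0337 and adjusted p = 1.0 in edgeR). The lowest value was 1 count in replicate 4 labelled *Npr1*+/+, and without that library the log2 fold change was 0.69 (SE 0.50, unadjusted p = 0.188 in edgeR).

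Upstream of ATF4, the 9 genes for eIF2 alpha, its kinases, their mitochondrial relay and the phosphatase subunits had log2 fold changes from -0.17 for *Dele1*, which carries the mitochondrial stress signal, to 0.29 for *Eif2ak2*, the kinase PKR. All 5 subunits of eIF2B, the exchange factor that phosphorylated eIF2 alpha inhibits, were below 0, as were 51.6% of all genes, from -0.21 for *Eif2b1* (SE 0.14, unadjusted p = 0.147 in edgeR) to -0.011 for *Eif2b2*. None of the 5 had an unadjusted p under 0.05. Among the partner and downstream factors, *Cebpg*, a dimer partner of ATF4, was at -0.04, and *Ddit4*, which restrains mTORC1, at 0.52 (SE 0.32). *Ddit4* had the lowest unadjusted p for cage of the 57 genes, 6.9e-05, with an adjusted p of 0.10 in edgeR.

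Of the downstream groups, the other serine, one-carbon, proline and transsulfuration enzymes had 4 genes above and 4 below 0, with *Pycr1*, of proline synthesis, at -0.21. Among the amino acid transporters 3 were above and 4 below 0, from *Slc1a4* at -0.36 to *Slc7a1*, the arginine and lysine carrier, at 0.55. *Slc7a1* was at 1.59, 2.30 and 3.41 CPM in replicates 5, 6 and 7 labelled *Npr1*+/-, and at most at 1.21 CPM in the other libraries. Of the other stress-induced effectors, 2 of 8 were above 0. Beside these counts, 51.6% of all genes tested were below 0. *Chac1*, which degrades glutathione and is a known target of ATF4 in other cells, had 131.1 ± 65.5 CPM (SD, n = 16) and a log2 fold change of 0.52 (SE 0.34), and *Herpud1* of the endoplasmic reticulum was at -0.07. None of these values passed the test.

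**Figure D4:**
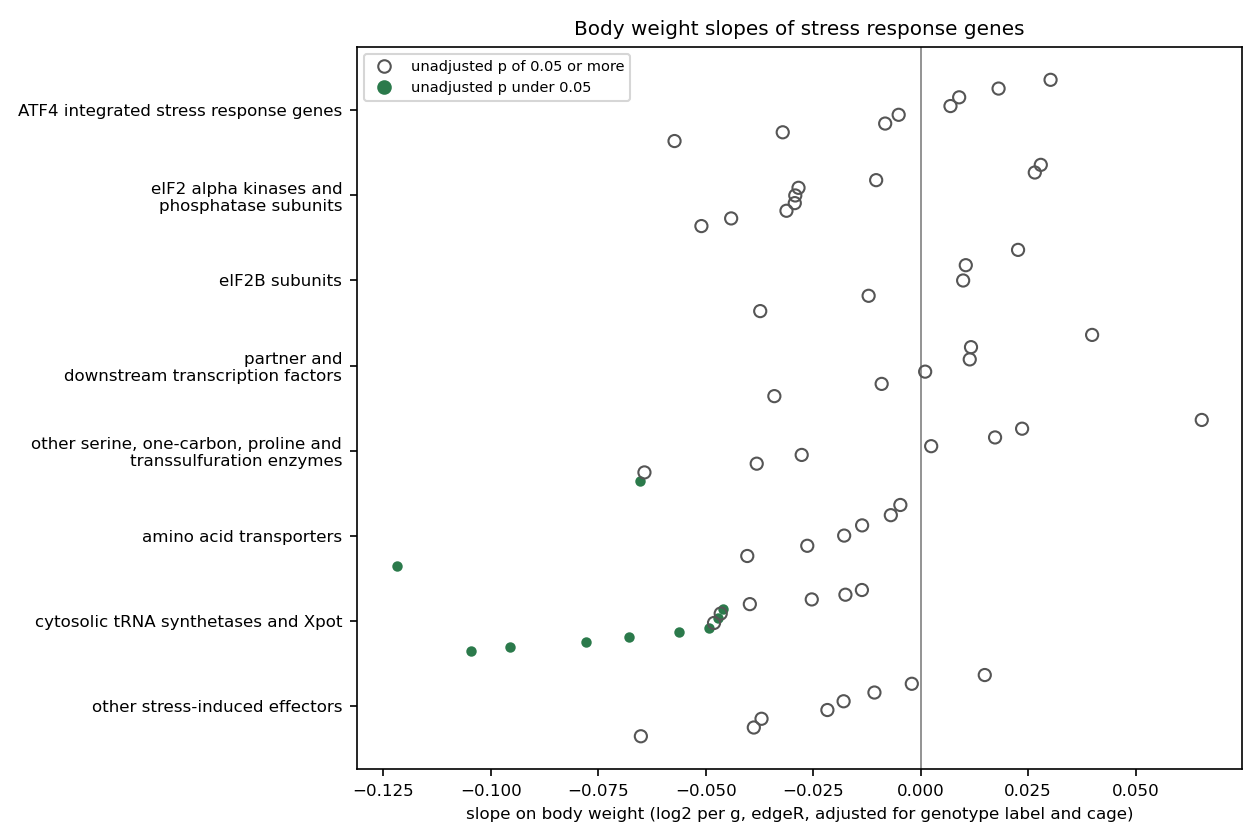
Slope on body weight in log2 per g (horizontal axis) of each tested gene, by list, from edgeR with genotype label and cage as covariates. Filled points had an unadjusted p under 0.05, and none had an adjusted p under 0.05. All 14 genes of the tRNA synthetase list lie below 0, 8 of them filled, while the 8 genes in the top row lie on both sides of 0.

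The tRNA synthetases, which charge tRNAs with amino acids, together with the tRNA exporter *Xpot*, were the list with the most weight slopes past the unadjusted threshold. All 14 slopes were below 0, as were 52.7% of all genes. They ran from -0.105 log2 per g for *Iars* (SE 0.033, adjusted p = 0.245 in edgeR) to -0.014 for *Tars*. This shared sign did not hold in every fit, as 1 slope was above 0 without replicate 3 labelled *Npr1*+/+. Over all libraries 8 had an unadjusted p under 0.05, against 12.3% of all genes that did so with a slope below 0. None of the 14 had an adjusted p under 0.05. By genotype label 6 of the 14 were above 0 and 8 below, from -0.16 for *Cars* to 0.24 for *Iars*. The count of 8 was 1 without replicates 5, 6 and 7 labelled *Npr1*+/-, 4 without the 2 libraries highest in adipocyte markers, 3 when scaled by library size alone, and 2 without cage as a covariate. It was 3 without replicate 4 labelled *Npr1*+/+ or replicate 7 labelled *Npr1*+/-, 4 without replicate 1 and 5 without replicate 3 labelled *Npr1*+/+. It was higher, at 11, without replicate 3 labelled *Npr1*+/-, 10 without replicate 6 and 9 without replicate 10 of that label, and 9 in limma-voom.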

How the data were processed

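Skeletal muscle mRNA of 16 mice was sequenced as 52-base read pairs. The table the authors deposited holds unnormalized counts, from reads mapped to GRCm38 with STAR (2.7.2b per the labels) and counting on GENCODE M24 genes with featureCounts (1.6.4 per the labels; the paper's methods name another version). The labels name a Universal Plus kit of Tecan and the paper's methods a TruSeq stranded kit, so strand in the counting is not settled here. Genotype label, cage and body weight came from the labels. Symbols were matched for 55144 of 55471 identifiers. *Ddit3* had a second row of 105 bases with 0 counts, which was not used. Coordinates are those of the deposited table, and promoter sequences are from RefSeq (GRCm38.p6).

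Genes were filtered with filterByExpr, scaled by TMM and tested with edgeR 4.0.16 (R 4.3.3; robust and legacy quasi-likelihood) on genotype label, cage and body weight. P-values were adjusted by Benjamini-Hochberg over 14331 genes with a threshold of 0.05. Log2 CPM used a prior count of 2, and marker sums a pseudocount of 0.1 before logs. Correlations are descriptions over 16 libraries. The steps were tested on simulated data. Alternatives used DESeq2 1.42.0, limma 3.58.1, other filters, scalings and covariates, and each library left out. Fits without the libraries highest on PC1, in adipocyte or in hepatocyte markers, the fit with adipocyte markers, the fits on the label alone with libraries left out and the count of tRNA synthetases were added after seeing the data.

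The members and gene lists were chosen with earlier results of these data known. Genes named are all members, *Npr1*, pathway genes past an adjusted threshold or with the smallest genotype p per list and direction, and the nearest patterns to *Atf4* (5) and to the 4 enzymes (3). Any other gene named was picked with its values in view. A shared replicate number does not mark a shared animal, and the deviations of 6 same-numbered pairs had correlations of 0.0328 to 0.17, so the numbers were not treated as pairs. No 2 libraries agreed within sampling noise. The labels give 1 mouse per library. No library was left out of the main comparison.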

Additional observations from a re-analysis of the deposited data

Results flagged for a closer look

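Dixon's test was run on log2 CPM in each label for the 8 tested genes, *Npr1* and the named pathway genes, 44 groups in all, and 3 groups held a library far from the rest. Chance flags about 1 in 20 groups, or 2.2 of 44. *Phgdh* stood at a log2 CPM of 2.82 in replicate 4 labelled *Npr1*+/+, above 1.84 for the next library of that label. *Phgdh* stood at 2.27 in replicate 10 labelled *Npr1*+/-, above 1.32 for the next. *Psat1* stood at 2.69 in the same replicate 10, above 1.79 for the next. These are the 2 libraries with the highest adipocyte marker sums (208.9 and 327.6 CPM), and the part of adipocyte RNA in these values was not tested.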

How the results depend on the processing

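None of the 8 tested members had an adjusted p under 0.05 by genotype label, body weight or cage in the fits run for each, or for label by cage with TMM or RLE factors. The lowest for cage was 0.141, for *Atf4* without *Npr1*+/- replicate 3. By genotype label, 0 genes of the whole table passed, against 8 without a filter on low counts, 6 in DESeq2, 1 without the 3 libraries highest on PC1 and 0 to 3 with 1 library left out. With the replicate block in place of cage 2 passed. In that fit *Npr1*+/- replicates 7 to 10 had no *Npr1*+/+ library of their number, so the label contrast rested on the other libraries. The shared numbers mark no pairs of animals. *Trib3* was at -0.30 and *Mthfd2* at 0.17 there, and no member's call changed. Cage gave 4 genes, against 0 by library size alone, 23 without a filter, 1 with at least 10 counts in every library, 86 in DESeq2, 1 in limma-voom, 2 without the PC1 libraries and 0 to 869 with 1 library left out. Body weight gave 0 genes, against 26 in DESeq2 and 0 to 3158 with 1 library left out.

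Sign changes by label were as follows. *Atf5* was at 0.027 with the label alone, 0.046 with weight alone, 0.0082 with RLE factors, 0.0084 unfiltered or in DESeq2, and 0.015 with adipocyte markers as covariate. *Mthfd2* was at 0.14 with the label alone, 0.090 with cage alone and 0.017 with weight alone. With the label alone, *Atf5* was at 0.088 and *Mthfd2* at 0.31 without *Npr1*+/+ replicate 4, and at 0.028 and 0.31 without the 2 adipocyte-high libraries. *Trib3* was at -0.0054 by library size alone and -0.12 without the hepatocyte-marker library. Without the PC1 libraries *Atf4* was at 0.081, *Atf5* at 0.069, *Ddit3* at 0.035 and *Trib3* at -0.043. Without the 2 adipocyte-high libraries *Atf4* was at 0.16, *Atf5* at 0.10, *Asns* at 0.044 and *Mthfd2* at 0.14.

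Weight slopes changed sign for *Phgdh* (0.0051 by library size alone, 0.00028 in DESeq2, 0.033 without the adipocyte-high libraries), *Trib3* (0.0020 without cage, 0.0049 without the adipocyte-high libraries) and *Atf5* (-0.0051 without the PC1 libraries).

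With each library left out, label values ran from -0.19 to 0.11 (*Atf4*), -0.14 to 0.20 (*Atf5*), -0.17 to -0.018 (*Ddit3*), -0.12 to 0.42 (*Trib3*), -0.44 to 0.03 (*Asns*), -1.02 to 0.087 (*Phgdh*), -0.55 to 0.20 (*Psat1*) and -0.25 to 0.19 (*Mthfd2*). Slopes ran from 0.011 to 0.068 (*Atf4*), -0.0048 to 0.029 (*Atf5*), -0.0015 to 0.021 (*Ddit3*), -0.022 to 0.028 (*Trib3*) and -0.035 to 0.066 (*Phgdh*). Those of *Asns* ran from -0.046 to -0.0050, of *Psat1* from 0.0057 to 0.063 and of *Mthfd2* from -0.096 to -0.029. The cause of these changes was not tested. Depth limits the size of difference that could be detected for *Fgf21* and *Gdf15*.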
